A study of Rattus norvegicus with 12 samples.

Results

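Voltage-gated sodium, calcium and cation channels and potassium channels were represented by 201 of the 41012 probes of a whole rat genome array, chosen by gene symbol alone (names that begin with Kcn, Scn and a digit, Cacna, Cacnb or Cacng, and the Hcn genes). The 201 probes stood for 133 of 33212 gene names, 46 of them with more than 1 probe. RNA came from PC12 cells, a line derived from a rat adrenal pheochromocytoma that resembles chromaffin cells and can take on neuronal features. The treated cells received PACAP38, a neuropeptide of the secretin and VIP family, at 1e-07 M for 5, 10, 15, 30, 60 or 120 min, and the controls were PC12 cells of the same time without it. RNA of n = 6 preparations was pooled before labelling, and each treated pool was hybridised with its control pool on 2 arrays with the Cy3 and Cy5 dyes exchanged. Each time point was therefore 1 replicate, so the difference between the 2 arrays covers labelling and hybridisation and not the spread between cultures. All 12 arrays used 1 cell line in culture, without neurons or tissue.

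Voltage-gated sodium channels (Nav) carry the upstroke of the action potential, and voltage-gated calcium channels (Cav) let calcium in, which in chromaffin cells drives the release of catecholamines. Potassium channels set the resting potential and end the action potential: the Kv families open on depolarisation, inward rectifiers (Kir) and K2P channels pass current at rest, and the calcium-activated channels respond to the calcium that enters. HCN channels open on hyperpolarisation. Each pore is joined by accessory subunits that change its trafficking and gating. The PACAP receptor of PC12 cells acts through cAMP, a messenger known to alter both the activity and the transcription of channels.

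Each probe is a strand of 60 bases, and a value belongs to the stretch of transcript that the probe matches. The first 30 bases, 5′ to 3′, are shown for the probes on which the results turn, in lower case throughout since no part of them is marked, and 2 of the 3 probes of Hcn4 and both of Cacna1s are shown because they differed in their readings.
Kcnj11 (A_42_P683614): ggccgaaaagggtcctgtgagtgccataca
Hcn4 (A_44_P526803): ggcttccctatcaatgggtcgaagcaggta
Hcn4 (A_44_P327807): aggtttaactgtgattaggagatataccaa
Scn11a (A_43_P11998): gggtgttcctaccagcatcacagaattggg
Cacna1s (A_44_P472106): tgccagggtctttctgtcataaagtcacgc
Cacna1s (A_44_P255177): acccataccagtatcaggtgtggtatgtcg
Kcnn3 (A_43_P12020): aaagaagattgaccacgccaaagtcaggaa
Kcnk12 (A_44_P384273): tgctcggcgtgtgctgcatctactcgctct
On rat build rn4 the probe of Kcnj11 (NM_031358) lay at chr1:96615751-96615810 on the minus strand, and that of Scn11a (NM_019265) at chr8:124724572-124724631, also on the minus strand. The probes of Hcn4 lay on the plus strand at chr8:62668901-62668960 (A_44_P526803) and chr8:62667174-62667233 (A_44_P327807). The probe of Kcnn3 (NM_019315) lay at chr2:181854299-181854358 on the plus strand and that of Kcnk12 (NM_022292) at chr6:11282304-11282363 on the minus strand. Both probes of Cacna1s, designed on L04684 (A_44_P472106) and NM_053873 (A_44_P255177), are given as unmapped in the array's annotation. No annotation of rn4 was used here, so whether a probe lies in coding or untranslated sequence is not stated.

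A spot was read as detected where the scanner software marked it well above background, which was the case for 38.4 to 49.6% of spots per array in the control channel. Of the marker genes of PC12 and chromaffin cells, 8 of 9 (Th, Dbh, Ddc, Chga, Chgb, Slc18a1, Phox2a and Hand2) were detected in the control on all 12 arrays, and Gata3 on 9. Among markers of other cells, Col1a1 and Pdgfra of 6 fibroblast genes, 1 of 5 glial genes, Tnnt2 of 6 muscle genes and Cd68 of 4 blood cell genes were detected in the control on all 12 arrays.

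In untreated PC12 cells most channel genes gave no signal above background. The control RNA was detected on all 12 arrays for 35 of the 201 channel probes (17.4%), against 35.3% of all probes, and on no array for 134 (66.7%), against 45.9% of all probes. By the best probe of each gene, 28 of 133 genes were detected on all arrays, 22 on some, and 83 on none. Of those 83, 7 (Cacna1s, Kcnd2, Kcnh8, Kcnj15, Kcnj5, Kcnj9 and Scn11a) were detected in PACAP38 RNA on at least 1 array, and 76 on no array in either RNA. Kcnd2, Kcnh8, Kcnj15 and Kcnj5 were detected there on 1 array each. At that time Kcnd2 and Kcnh8 were brighter in Cy3 on both arrays, whichever RNA it carried (PACAP38 over control 0.463 and 6.57, 0.268 and 6.01). The reverse, signal in control RNA alone, was seen for 6 genes, so that 5.26% of channel genes had signal in PACAP38 RNA alone and 4.51% in control RNA alone, against 2.73 and 2.84% of all gene names. A gene without signal was below the reach of its probes and is not shown to be silent.

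The detected genes were spread over nearly all families. Among pore-forming subunits of Nav channels, Scn2a was the only 1 of 10 detected on all arrays, and among the 4 beta subunits it was Scn3b. Cacna1c was detected among the 4 L-type pores and Cacna1b, the N-type pore, among the 3 of the P/Q-, N- and R-type group. None of the 3 T-type genes was detected on all arrays. Their partners Cacnb1, Cacnb3, Cacna2d1 and Cacng2 were detected on all 12 arrays, where the beta and alpha2delta subunits are known to bring the pore to the membrane, and Cacng2 (stargazin) is better known as a partner of glutamate receptors. The K2P and calcium- or sodium-activated families each had 4 genes detected throughout: Kcnk2, Kcnk3, Kcnk6 and Kcnk12 of 13, and Kcnma1, Kcnn1, Kcnn3 and Kcnt1 of 12. Kcnj11, Kcnj12 and Kcnj14 represented 15 Kir genes. Kcnd1 was among the 2 detected throughout of 15 Kv1 to Kv4 pores, and Kcnh1 and Kcnh6 among the 3 of 12 genes of the Kv7 and EAG family. Hcn3, Hcn4, Kcng2 and Kcnip3 were also detected on all arrays.

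**Figure D1:**
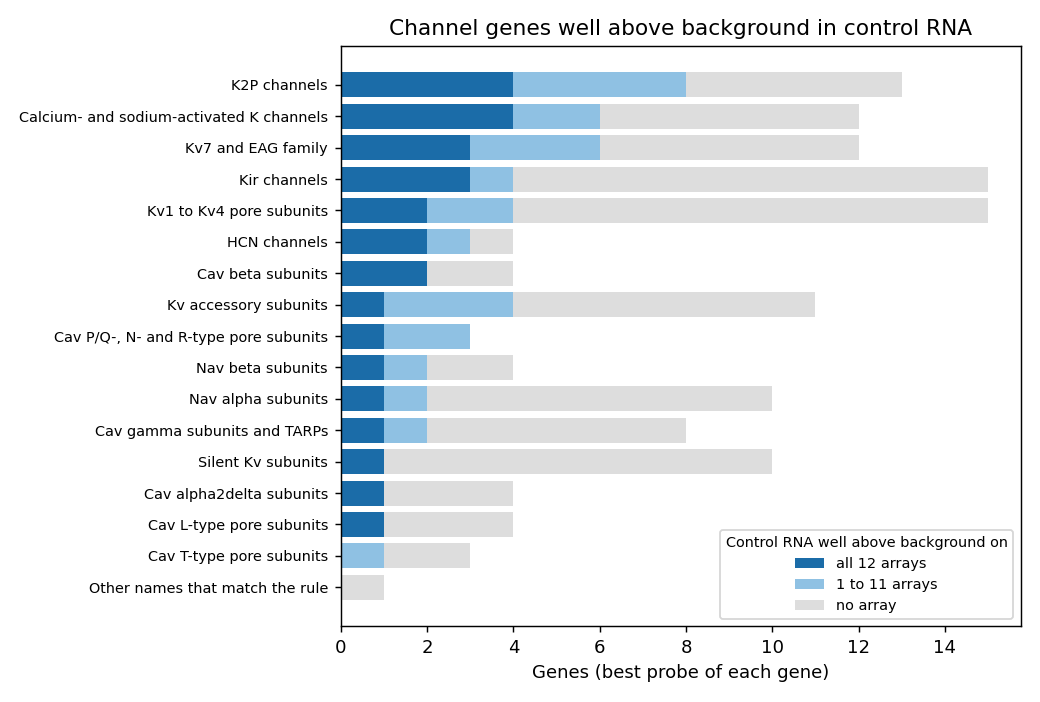
Number of channel genes per family (x axis) by the number of arrays on which the control RNA of their best probe was well above background; dark blue, all 12 arrays; light blue, 1 to 11; grey, none. The K2P and the calcium- and sodium-activated families each had 4 genes detected on all arrays, and the single other name that matched the rule, Kcnrg, had none.

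Channels often described in PC12 and chromaffin cells were divided between the 2 ends of this range. Of the genes listed for that reason, Scn2a, Scn3b, Cacna1b, Cacna1c, Cacna2d1, Cacnb3, Kcnma1, Kcnn3 and Kcnk3 were detected in the control on all 12 arrays. Kcnc1 and Hcn2 were each detected on 8 arrays, Kcnh2 (the ERG channel) on 4, Cacna1a on 2 and Scn3a on 1. The control RNA of Scn8a, Scn9a, Cacna1d, Cacna1h, Kcna2, Kcna5, Kcnd2 and Kcnn2 was well above background on no array, and Kcnd2 was detected in PACAP38 RNA on 1 array. Kcnq3 was not analysed here.

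The limit for counting a probe was a PACAP38 over control ratio of at least 2 (higher) or at most 0.5 (lower), with a spot p-value of the scanner software below 0.01, met the same way by both arrays. That p-value describes 1 spot of 1 array and is no test between cultures. No channel probe was counted at 5, 10, 15, 30 or 60 min, when 0.0, 0.0658, 0.117, 0.351 and 1.25% of all probes were counted in either direction. At 120 min 2 channel probes were counted as higher (Scn11a and Cacna1s), where 1.95% of all probes were, and 1 as lower (Kcnj11), where 1.53% were. The control RNA of Scn11a and Cacna1s was not well above background on either array, so their ratios rest on a control without a measured level, and the lowest fold their signals allow (1.76 and 1.81) is short of 2. Among probes detected in at least 1 RNA on both arrays, of which 52 were channel probes, those shares over all probes were 4.24 and 3.37%. In RNA from whole cultures, a lower level per cell and fewer cells with the transcript cannot be told apart.

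Folds were read for probes with both RNAs well above background on both arrays, here called measured, which were 36 to 44 channel probes per time point. Their median log2 fold lay between -0.07 (15 min) and 0.03 (60 min), while that of all measured probes lay between -0.02 and 0.00. At 120 min the 40 measured channel probes had a median of -0.04, with quartiles of -0.31 and 0.13, and all 15720 measured probes a median of -0.02, with quartiles of -0.33 and 0.23. Of the 40, 16 lay above and 24 below the control, and the 2 arrays gave the same sign for 25. Of 34 channel probes measured at all 6 time points, 17 stayed between 0.8 and 1.25 of the control throughout, as did 48.2% of all such probes. Before 120 min, 30 of the 34 (88.2%) did so, as did 75.1% of all such probes.

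**Figure D2:**
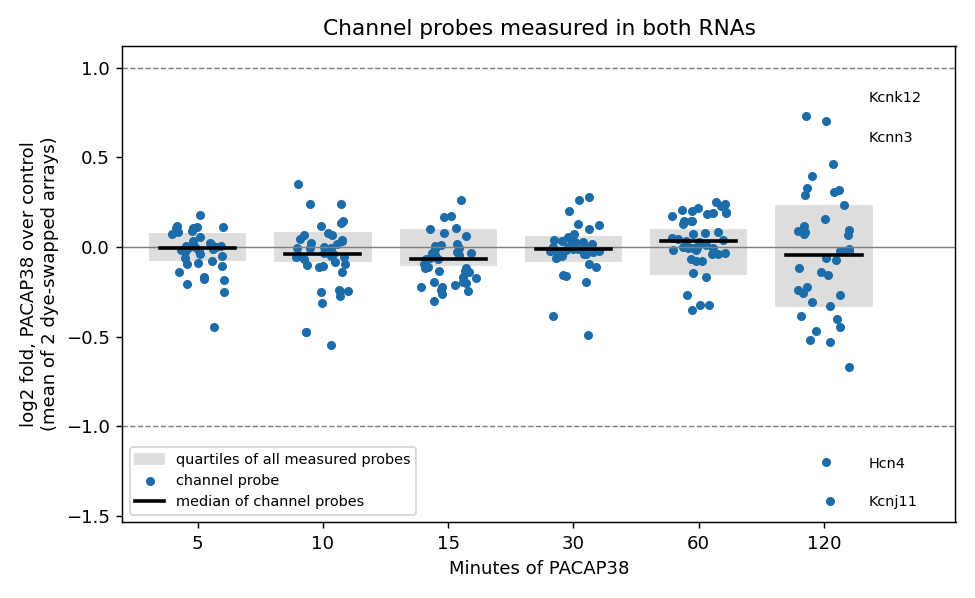
log2 fold of PACAP38 over control (y axis, mean of 2 dye-swapped arrays) for each channel probe measured in both RNAs, by minutes of PACAP38 (x axis, equally spaced); black bars are medians of the channel probes, grey boxes run between the quartiles of all measured probes, dashed lines 2-fold. At 120 min Kcnj11 (-1.41) and Hcn4 (-1.20) lay below the lower line, and Kcnk12 (0.73) and Kcnn3 (0.70) were the highest.

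Kcnj11, the pore of the ATP-sensitive potassium channel that ties membrane potential to metabolism, was the channel gene with the lowest fold. Its processed intensities at 120 min were 78.8 and 80.3 with PACAP38 and 222 and 202 in the control, on the arrays with PACAP38 in Cy5 and in Cy3. PACAP38 was thus at 0.355 and 0.397 of the control, a mean of 0.375, with spot p-values of 1.2e-07 and 5.8e-07. Over the 10 arrays of the earlier times the PACAP38 intensities ran from 109 to 170 with a median of 140.1, and those of the control from 143 to 182 with a median of 151. The groups overlapped there and were apart at 120 min, when the control values were the highest of the 12 and the PACAP38 values the lowest. The mean fold was 0.798 at 60 min (0.752 and 0.846) and between 0.87 and 1.03 before that. Intensities were not scaled between arrays, so the fold within an array is the comparison. With a normexp background and loess in place of the processed intensities, the fold at 120 min was 0.777, and with median centring 0.734, and under neither was Kcnj11 counted.

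Hcn4, a pacemaker channel best known from the sinoatrial node, had the next lowest fold at its brightest probe (A_44_P526803). At 120 min PACAP38 RNA gave 197 and 126 and control RNA 348 and 375, folds of 0.565 and 0.336 with a mean of 0.436. The array with PACAP38 in Cy5 did not reach 0.5, so the probe was not counted. Its earlier folds lay between 0.891 (60 min) and 1.13 (15 min). With normexp and loess the fold at 120 min was 0.757. The probe of Hcn4 next to it (A_44_P327807, 18 of 60 bases G or C, against 33 of 60) gave no fold of its own, because its 2 arrays were opposed at every time point. PACAP38 over control read 0.101 to 0.264 with PACAP38 in Cy5 and 3.09 to 8.90 with PACAP38 in Cy3. The Cy3 channel was the brighter on all 12 arrays, whichever RNA it carried. The third probe (A_44_P465011) was well above background on no array.

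Scn11a encodes a sodium channel pore known from nociceptive sensory neurons. Its intensities at 120 min were 70.6 and 35.2 with PACAP38, well above background on both arrays, and 14.6 and 5.795 in the control, not well above background on either. The fold was at least 1.76, set against the higher of the control's own signal and the lowest signal well above background on each array. At the 5 earlier times neither RNA was well above background, with PACAP38 intensities between 4.26 and 7.38 and control intensities between 4.30 and 12.2.

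Cacna1s, the L-type pore and voltage sensor of skeletal muscle, showed the same kind of reading at 1 of its probes (A_44_P472106). At 120 min it gave 53.9 and 53.4 with PACAP38, well above background, and 19.1 and 19.7 in the control, not well above it, a fold of at least 1.81. Earlier PACAP38 readings ran from 8.29 to 26.2 and control readings from 7.67 to 17.5, none well above background. The probe of Cacna1s designed on NM_053873 (A_44_P255177) was well above background in neither RNA on any array, with 9.62 and 7.68 for PACAP38 at 120 min and 8.14 and 8.54 for the control. Of the 6 muscle markers, 5 (Myh1, Myh2, Acta1, Ckm and Myh6) were not above background in the control on any array, and Tnnt2 was at 1.35 of the control at 120 min (1.22 and 1.499). With normexp and loess neither Scn11a nor Cacna1s was counted, and no fold is given there because the control was not above background.

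**Figure D3:**
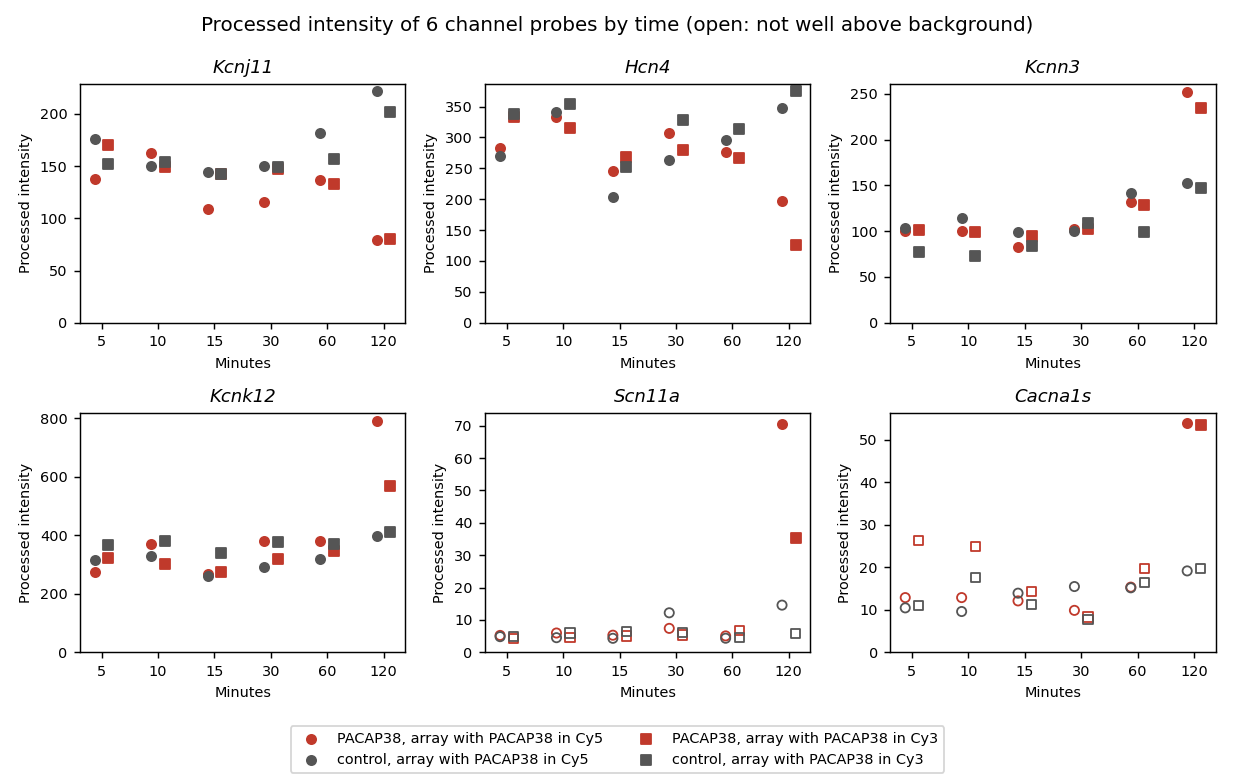
Processed intensity (y axis, from 0, scanner units) of 6 channel probes by minutes of PACAP38 (x axis, equally spaced); red, PACAP38; grey, control; circles, the array with PACAP38 in Cy5; squares, in Cy3; open symbols are not well above background. At 120 min Kcnj11 was near 80 with PACAP38 (78.8 and 80.3) against 222 and 202 in the control, and Scn11a and Cacna1s were well above background with PACAP38 alone.

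Kcnn3 and Kcnk12 had the highest measured folds at 120 min. Kcnn3, a small-conductance calcium-activated potassium channel, gave 252 and 235 with PACAP38 and 152 and 147 in the control, folds of 1.66 and 1.60. The control values at 120 min were themselves the highest of the 12, the others lying between 72.4 and 141. Its earlier folds lay between 0.969 and 1.13. Kcnk12, a K2P subunit, gave 791 and 570 against 399 and 412, folds of 1.99 and 1.38 with a mean of 1.66, and between 0.879 and 1.06 before 120 min. Kcnn3 was the only channel probe above 1.5 on both arrays, of 40 measured, where 6.65% of all measured probes were, and Kcnj11 and Hcn4 were the 2 below the matching lower limit on both, where 9.51% were. With normexp and loess the folds were 1.18 for Kcnn3 and 1.31 for Kcnk12.

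The sodium channel genes measured at 120 min, Scn3b and Scn2a, lay below the control at their brightest probe. Scn3b, a beta subunit, read 47080 and 40340 with PACAP38 against 68290 and 56930 in the control, folds of 0.689 and 0.709, after 0.908 to 1.00 at the earlier times. The brightest probe of Scn2a (A_44_P121187) was at 0.628 (0.560 and 0.705). The other probes of Scn2a did not read alike: A_42_P529319 was at 0.667 and 1.45 on the 2 arrays, and A_44_P100365, in part below background, at 0.524 and 0.898. The fold of Scn3b moved little with normexp and loess (0.719), and that of A_44_P121187 went to 0.945.

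The calcium channel genes measured in both RNAs at 120 min lay between 0.766 and 1.25 of the control by their brightest probes. Cacna1s, counted as higher, was not among them because its control RNA was not above background. Cacna1b was at 0.766 at 120 min (0.691 and 0.849), and the brightest probe of Cacna1c at 1.06, with arrays on opposite sides (1.27 and 0.892). Of the auxiliary subunits, Cacnb1 was at 1.25 on both arrays (1.249 and 1.245), Cacnb3 at 0.952, Cacna2d1 at 0.958, Cacng2 at 1.07 and Cacng7 at 0.857. The 2 arrays lay on opposite sides of the control for Cacnb3, Cacna2d1 and Cacng7.

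Among voltage-gated potassium channels, Kcnh1, an EAG channel, was at 0.693 at 120 min (0.664 and 0.724) with intensities of 3388 and 3068 against 5106 and 4239. Kcnd1 (1.06), Kcng2 (0.907) and Kcnh6 (0.921) were closer to the control, and the calcium-binding accessory subunit Kcnip3 was at 0.836 (0.839 and 0.833) by its brightest probe and 1.09 by the other. The accessory subunit Kcnab3 was at 0.809, from arrays at 1.06 and 0.620.

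Inward rectifiers, K2P channels and calcium- or sodium-activated channels had genes on both sides of the control at 120 min. Kcnk6 was at 0.734 on both arrays (0.7338 and 0.7332), Kcnk9 at 0.846 and Kcnk3 at 1.05 and 1.18 by its 2 probes. Kcnj12, a strong inward rectifier, was at 0.795 (0.905 and 0.698), while Kcnj14 of the same family was at 1.26 (1.23 and 1.28). Kcnn1 was at 0.723 (0.675 and 0.774) and 0.831 by 2 probes, where Kcnn3, which shares its family, was above the control. The large-conductance channel Kcnma1, which opens to voltage and calcium together, was at 1.05 by its brightest probe and at 1.32 (1.21 and 1.43) and 1.23 by 2 others, the last with arrays at 1.76 and 0.853. Kcnt1 was at 0.984. Of the HCN channels, Hcn3 was at 1.24 (1.26 and 1.22) and the brightest probe of Hcn4 below the control, as given above.

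The side of the control on which genes near it lay depended on the scaling. With normexp and median centring, which put the median log2 fold of all measured probes at -0.15, 6 of the 10 plotted genes above the control came out below it. Set against that median, 2 of the 10 (Kcnk3 and Kcnma1) did, and 6 of the 18 below (Cacng7, Kcnab3, Kcnh6, Kcnk9, Kcnt1 and Scn2a) came out above it. The 6 that came out below the control were Kcnk3 (0.870), Kcnma1 (0.875), Cacng2 (0.918), Kcnd1 (0.933), Cacna1c (0.950) and Kcnj14 (0.997). Cacng7 went from below the control to 1.002. With normexp and loess none of the 10 turned, while Cacng7 (1.015) and Kcnt1 (1.005) went from below to above, joined by Kcnh6 when set against the median.

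**Figure D4:**
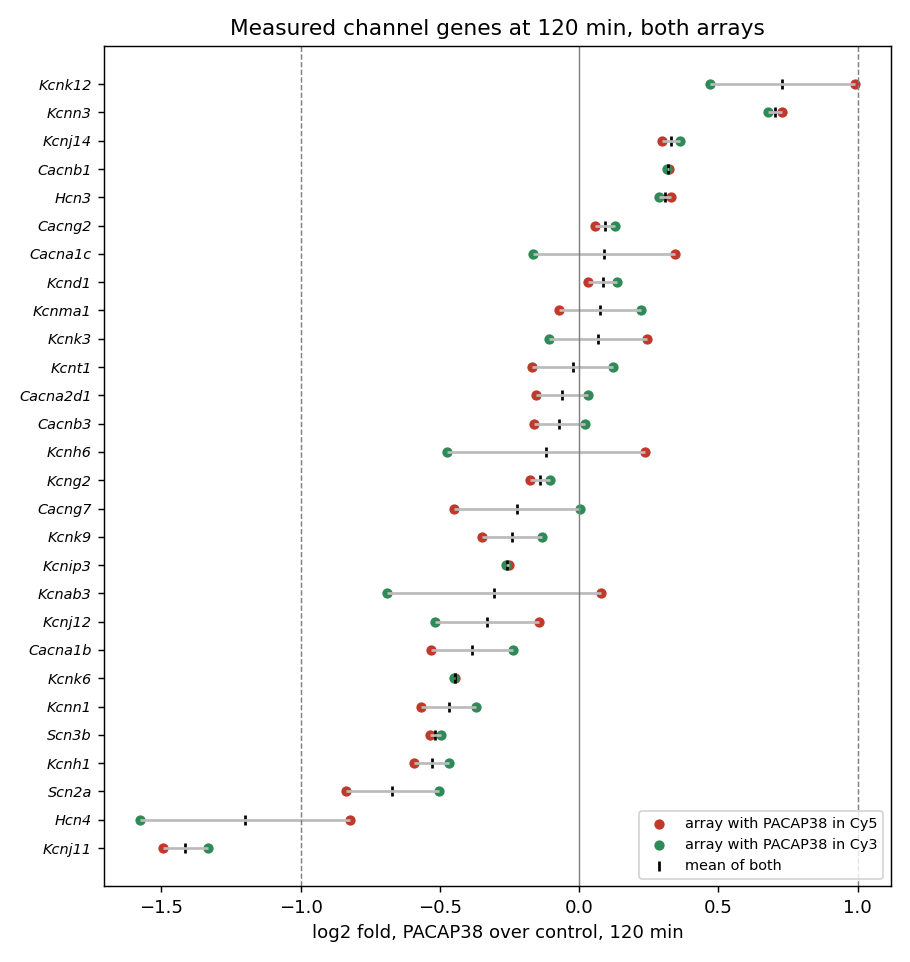
log2 fold of PACAP38 over control at 120 min (x axis) for 28 channel genes whose brightest probe was measured; red, the array with PACAP38 in Cy5; green, in Cy3; black ticks, their mean; dashed lines, 2-fold. Both arrays lay above the control for 7 genes, below it for 12, and on opposite sides for 9; by the mean, 10 genes lay above the control, 6 of which lay below it with normexp and median centring, where the median of all measured probes was -0.15, and 2 of which lay below that median, as 6 of the other 18 lay above it.

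At 60 min the spread was small. Of 44 measured channel probes, none passed 1.5-fold in either direction on both arrays, where 2.9% of all measured probes were higher and 2.55% lower by that limit. Among the 5 lowest mean folds were those of Cacng7 (0.785), Kcnj11 (0.798), Kcnab3 (0.799) and Hcn4 (0.891), and the highest were those of Kcnj14 (1.19), 1 probe of Scn2a (1.18), 1 of Cacna1c (1.17), Hcn2 (1.16) and Cacng2 (1.15). The value of Hcn2 came from arrays at 1.94 and 0.701, and that of Kcnab3 from arrays at 1.03 and 0.621. Kcnj11 and Hcn4 were thus among the 5 lowest at both times.

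A slope of the log2 fold on log2 time over the 6 time points was fitted with limma to 20265 probes detected at 1 or more time points, 56 of them channel probes. No channel probe passed an adjusted p of 0.05 in limma, where 0.523% of all probes had a rising and 0.202% a falling slope. Without adjustment, 10 channel probes (17.9%, 3 rising and 7 falling) had a limma p below 0.05, against 28.7% of all probes. Scn11a, among the rising, entered the fit only through its PACAP38 signal at 120 min. Neither of its RNAs was well above background at the other times, so its slope rests on values without a measured level. The smallest adjusted limma p-values were those of Kcnab3 (slope -0.10 per doubling of time, SE 0.03, adjusted p = 0.090) and Kcnk12 (0.17, SE 0.05, adjusted p = 0.096). Kcnj11 had a slope of -0.25 (95% interval -0.44 to -0.05, adjusted p = 0.118). Among the calcium channel genes, the 95% interval of the slope was -0.04 to 0.08 for the brightest probe of Cacna1c, -0.08 to 0.05 for Cacnb3, -0.09 to 0.11 for Cacna2d1 (A_42_P841762) and -0.02 to 0.17 for Cacnb1. Against minutes instead of log2 minutes, 10 channel probes (3 rising, 7 falling) passed the adjusted limit, 17.9% of those fitted, as did 26.3% of all probes. Kcnj11, Hcn4, Kcnk12 and Scn11a, the last with the limit given above, were among the 10. Time in minutes gives the single pair of arrays at 120 min most of the weight.

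The 2 arrays of a time point did not always agree. Over measured channel probes the median difference of their log2 folds was 0.15 to 0.29, and the largest at a time point 1.01 to 1.59. Besides A_44_P327807 of Hcn4, 7 channel probes read at least 2-fold in opposite directions at 1 or more time points, among them those of Kcnt1, Cacna1a, Kcnd2, Kcnt2, Kcnk6 and Kcnh8. Of the probes with either RNA well above background on at least 1 array, 1.79 to 6.25% of channel probes (1 to 4 probes) were opposed in this way per time point, A_44_P327807 included, against 3.23 to 4.15% of all probes.

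Promoters of 87 of the 133 genes were found in RefSeq (build GRCr8, 250 bases before to 50 bases after the start) and searched on both strands for 3 motifs. The cAMP response element TGACGTCA was in none of the 87, and in 1.91% of all 27457 promoters. The AP-1 motif TGACTCA was in 2 (2.3%, those of Kcne1 and Kcnj1), against 4.53% of all, and the EGR motif GCGTGGGCG in 1 (1.15%, Scn7a), against 0.59%. None of these 3 genes was detected in the control. The promoters of Scn11a, Cacna1s and Kcnn3 held none of the 3 motifs.

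Other ion channels and known partners of channels were read in the same way for context. Of 44 genes for TRP, chloride, acid-sensing, purinergic, nicotinic, store-operated and intracellular calcium channels, 22 were detected in the control on all arrays, against 35.3% of all probes. At 120 min 2 of the 44 were counted as higher and none as lower, where 1.95 and 1.53% of all probes were. The 2 were Trpm2, a calcium-permeable channel, at 2.56 of the control (2.66 and 2.47), and Clcn5, a chloride and proton exchanger of endosomes, at 2.24 (2.25 and 2.24). Orai2, a pore of store-operated calcium entry, was at 0.509 (0.517 and 0.501), just short of the limit. Of 20 partners, 8 were detected on all arrays and none was counted. Rrad and Rem2, small GTPases that restrain calcium channels, were at 2.08 and 1.88 at 120 min, but from arrays at 3.46 and 1.25 and at 3.12 and 1.14, with 1 or both RNAs in part below background. Th and Dbh, the catecholamine enzymes among the PC12 markers, were at 1.81 (2.15 and 1.52) and 2.36 (3.03 and 1.84) of the control at 120 min and were not counted, since 1 array of each was under 2.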

How the data were processed

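Two-colour Agilent arrays (12, of the 4 x 44K format) compared PACAP38 with control RNA of PC12 cells, 2 dye-swapped arrays per time point and 2 time points on each of 3 slides, so slide and time cannot be told apart except within a slide. The authors extracted the scans with Agilent Feature Extraction (version 11.0.1.1 in the submitters' processing notes). The deposited processed intensity values are background-subtracted and LOWESS dye-normalized within an array, with a surrogate on spots not above background; the deposited mean and background intensities are not normalized. The deposited p-value of a spot is the software's own, and the authors' table of ratios holds log10 of Cy5 over Cy3, not turned for dye; it was equal to the log10 ratio of the processed intensities. Deposited flags (score values) mark controls, outliers and spots well above background.

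Ratios were turned for dye; control spots (1639 per array) and outlier spots (197 to 267) were left out, and spots of a probe averaged as log2. No spot was saturated. No column was left unmapped. The brightest probe stands for a gene. limma 3.58.1 in R 4.3.3 fitted slopes, with Benjamini-Hochberg adjustment over all probes fitted. On simulated data with 20265 probes and 200 changed, it recovered 82% at a log2 slope of 0.5 and 93% at 1, with 4.37% of its calls false. The simulated noise was independent and the changes linear in log2 time. Every channel slope was smaller than 0.5 in size (at most 0.43), so the recovery does not cover slopes of that size. Bounds used the processed values after limma's Aquantile scaling, which leaves them open to what dye bias the swap does not cancel. Alternatives were the fold limit alone, a 1.5-fold limit, 1 array alone, detected probes, genes for probes, normexp (offset 50) with loess or median centring, the table of ratios, and, for slopes, time in minutes, slide as a block, no filter and leaving out a time point.

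Members and lists were chosen with earlier results of these data known. Genes named are those counted at any time, the 10 highest and 10 lowest measured probes at 120 min and 5 and 5 at 60 min, and channels described in PC12 or chromaffin cells; some of these are not reported here. Names were matched to RefSeq by accession for 156 of 201 probes.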

Additional observations from a re-analysis of the deposited data

Results flagged for a closer look

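Of 26 probes of named channel genes measured at 2 or more time points, those of 5 genes (19.2%) lay above the control on both arrays at 1 time point and below it on both arrays at another, by at least 1.1-fold each and with both RNAs measured. Of all 16440 probes so measured, 8.74% did, but the named probes were in part chosen for their folds, so the shares are not alike in kind. With normexp and loess only Kcnh1 met this limit, and with normexp and median centring none of the 26 probes did. The differences between time points were not tested, since each has 1 replicate. Kcnk12 was at 0.879 of the control at 5 min and 1.66 at 120 min, a log2 difference of 0.91. Hcn3 was at 0.719 at 10 min and 1.24 at 120 min, a log2 difference of 0.78, against 0.925 and 1.05 with normexp and loess. Kcnh1 ran the other way, at 1.14 at 60 min (1.16 and 1.12 on the 2 arrays) and 0.693 at 120 min (0.664 and 0.724), a log2 difference of 0.71 between time points of 1 slide. Cacnb1 was at 0.897 at 30 min and 1.25 at 120 min, a log2 difference of 0.48, but 1.002 at 120 min with median centring. Cacna2d1 was at 0.847 at 15 min and 1.14 at 60 min, a log2 difference of 0.43, but 0.989 at 15 min with median centring.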

How the results depend on the processing

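The count of channel probes past 2-fold at 120 min was 2 higher and 1 lower with the processed intensities, and 0 and 0 with normexp and loess or with normexp and median centring. These changed the background correction, its offset and the normalization together and used no spot p-value, and which of them removed the calls was not tested. At 1.5-fold 3 were higher and 2 lower. With 1 array alone 4 or 5 were higher and 3 to 5 lower at 120 min, and 1 to 4 higher and 1 or 2 lower at 60 min, where both arrays together gave 0. Counts over all probes were not made for the normexp scalings, the 1.5-fold limit with its p-value or 1 array alone. Whether channel probes moved more than the whole array under these settings was therefore not tested. Leaving out the p-value limit, using detected probes, genes or the table of ratios left the counts at 60 and 120 min as they were. The median log2 fold of measured channel probes at 120 min was -0.04, and the table of ratios left it as it was. It was -0.13 and -0.11 with 1 array alone (PACAP38 in Cy3, in Cy5) and -0.13 over genes. With normexp and loess it was -0.0098, with normexp and median centring -0.11 (all measured probes -0.15 there), and over every channel probe 0.028. Each of these alternatives but the table of ratios moved it by more than 0.0094, the SD between the medians of the 2 arrays. Both array medians lay below -0.04 and both arrays held the same pools, so that SD is no error of the median. At 60 min no alternative moved the median by more than the spread of the 2 arrays. The count of 0 slopes became 10 with time in minutes and stayed 0 under the other 13 alternatives, among them leaving out any time point. No probe of the whole array passed with slide as a block, with no filter, or with any time point but 5 or 60 min left out. With normexp and median centring, and without 60 min, 0.00493% of all probes passed. The largest share under the 13 was 0.755%, without 5 min. A channel count of 0 could hardly differ under such shares and shows no stability. Channel probes with control signal numbered 67 by at least 1 of 12 arrays, and 36 to 52 by the other alternatives. Of 35 named probes at the time point of their largest fold, 35 kept their direction with normexp and loess and 33 with median centring (Kcnj14 and Cacna1c at 120 min did not). The size of the fold moved by at least the SD of the 2 arrays for 18 and 21 of the 35. With either array alone 31 kept their direction, but each array is part of the mean and the time was picked for its fold, so agreement is in part built in. Where another probe of the gene could be read, 13 of 19 such readings had the same direction. PACAP38 and control RNA were paired within each array throughout, and slide as a block was among the alternatives for slopes. Beyond that, no paired analysis was possible because each time point has 1 pool of each RNA. The number of arrays and signals near background limit the precision, most of all for Scn11a and Cacna1s.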
